A study of Mus musculus with 6 samples.

Results

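The complement system was followed through 9 genes in 6 RNA-seq libraries of mouse brain, taken at day 3 after a photothrombotic stroke: 3 libraries from animals given PLEA nanoparticles and 3 from animals given saline. The genes were taken by name from the deposited count table, which lists 56748 genes, and all 9 were found and passed the filter on low counts, as 17584 genes did. They are the C1q chains C1qa, C1qb and C1qc, the components C4b, C2 and C3, the anaphylatoxin receptors C3ar1 and C5ar1, and Serping1, which encodes the C1 inhibitor. All animals were male wild-type C57 mice whose left hemisphere was lit for 5 minutes by a 250 mW laser (532 nm, 1.5 mm wide) after an intravenous agent at 100 mg/kg, and 100 µL of PLEA or of saline followed by tail vein after 2 hours. The labels give neither the animals' age, the agent's name, the meaning of PLEA nor whether libraries were pooled or came from separate animals, and a p-value here reflects differences among these libraries alone, which may be technical. No library of unlesioned brain was analysed here.

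Complement is a cascade of plasma and tissue proteins. In its classical pathway C1q recognises a surface, the C1 proteases cut C4 and C2, and the enzyme they form cuts C3, which coats the target and releases the peptide C3a, while cleavage of C5 further down releases C5a. In brain, C1q transcripts come mainly from microglia, C4b is made by astrocytes and oligodendrocytes, the receptors of C3a and C5a sit on microglia and infiltrating myeloid cells, and the C1 inhibitor blocks the C1 proteases. The comparison asks how these transcripts differed after PLEA. In bulk tissue, fewer cells of a type and less RNA per cell cannot be told apart.

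Library totals ranged from 17357781 to 17484650 counts with PLEA and from 16810448 to 17516434 with saline, and values below are CPM, the count of a gene scaled to its library's total and its edgeR TMM factor. Neuronal markers summed to between 5383 and 6979 CPM over 5 genes with PLEA and between 5559 and 6582 CPM with saline. Striatal markers were present too, at summed levels from 375 to 958 CPM with PLEA. In saline replicates 1 to 3 they were at 360, 63.2 and 812 CPM, so saline replicate 2 lay below all other libraries. Whether this reflects the tissue sampled was not tested. The microglial markers P2ry12 and Tmem119 were detected in every library, and the hepatocyte marker Alb had 0 counts in 5 libraries and 1 in saline replicate 1. Among the complement genes saline replicate 1 stood apart. It was the highest library for 7 of the 9 complement genes, and PLEA replicate 2 was the lowest for 6 of the 9. The log2 fold change of each of the 9 genes is given with and without saline replicate 1.

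Promoter windows (250 bases before to 50 after the RefSeq start, build GRCm38.p6, minus strand) were at hand for 5 of the 9 genes. The windows of C1qb and C1qc are shown because these neighbours on chromosome 4 gave nearly the same profile across libraries, and those of C3ar1 and C5ar1 because the receptor genes shifted together when 1 library was left out. Capitals mark a match to any of 5 short motifs searched on both strands. The window of C1qb is chr4:136886151-136886450, that of C1qc chr4:136892865-136893164, that of C3ar1 chr6:122856108-122856407 and that of C5ar1 chr7:16259289-16259588.
C1qb: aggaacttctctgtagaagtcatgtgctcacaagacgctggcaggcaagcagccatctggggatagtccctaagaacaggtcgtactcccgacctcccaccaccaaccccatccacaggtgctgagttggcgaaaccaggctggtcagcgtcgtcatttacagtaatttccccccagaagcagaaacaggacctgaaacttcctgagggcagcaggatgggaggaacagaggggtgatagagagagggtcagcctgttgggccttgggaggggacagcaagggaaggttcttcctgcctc
C1qc: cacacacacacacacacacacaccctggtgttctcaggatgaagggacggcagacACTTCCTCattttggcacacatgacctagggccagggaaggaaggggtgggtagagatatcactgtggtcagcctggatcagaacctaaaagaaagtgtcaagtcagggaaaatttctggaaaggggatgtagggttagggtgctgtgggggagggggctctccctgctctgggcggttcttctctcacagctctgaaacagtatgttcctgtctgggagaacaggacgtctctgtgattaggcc
C3ar1: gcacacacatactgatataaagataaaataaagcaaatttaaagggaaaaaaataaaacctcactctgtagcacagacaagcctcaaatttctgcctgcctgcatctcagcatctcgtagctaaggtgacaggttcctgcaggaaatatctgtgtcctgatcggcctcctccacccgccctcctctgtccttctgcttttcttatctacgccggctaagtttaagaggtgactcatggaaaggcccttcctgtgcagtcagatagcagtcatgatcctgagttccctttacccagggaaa
C5ar1: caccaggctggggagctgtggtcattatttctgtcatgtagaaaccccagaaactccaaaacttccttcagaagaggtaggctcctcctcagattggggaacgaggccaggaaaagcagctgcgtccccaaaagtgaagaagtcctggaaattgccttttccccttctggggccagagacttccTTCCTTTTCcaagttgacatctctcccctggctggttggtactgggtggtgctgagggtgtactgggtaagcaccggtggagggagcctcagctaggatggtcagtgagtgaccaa

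The motifs were the interferon-stimulated response element core GAAANNGAA, the gamma-activated site TTCNNNGAA, the PU.1 core GAGGAAGT, the C/EBP motif TTGCNNCAA and the NF-kB motif GGGNNTTCC. Over all 32851 RefSeq promoter windows they occurred in 8.56%, 8.3%, 3.2%, 2.08% and 5.82% in that order. C1qc held the PU.1 core, read on the reverse strand, with its leftmost printed base 195 bases before the start. C5ar1 held the interferon-stimulated response element core, read on the reverse strand, with its leftmost printed base 66 bases before the start. The windows of C1qb, C3ar1 and C3 held no match to these letters. A match is a string of letters and was not tested as a binding site.

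No complement gene passed the edgeR quasi-likelihood test. At an adjusted p under 0.05, 0 of the 9 were higher and 0 lower, as for all 17584 genes (0% in each direction), and DESeq2 and limma voom also called 0 of the 9. At an unadjusted p under 0.05 the test had 1 of the 9 lower (Serping1), where 3.58% of all tested genes were lower, and 0 of the 9 higher, where 2.28% were. Serping1 was also the gene whose PLEA libraries all lay below its saline libraries, which held for 5.54% of tested genes. Over the 9 genes the median log2 fold change was -0.44, with 7 values negative and 2 positive, against a median of -0.01 over all tested genes. Without saline replicate 1 the median was 0.11, so its sign rests on that library.

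**Figure D1:**
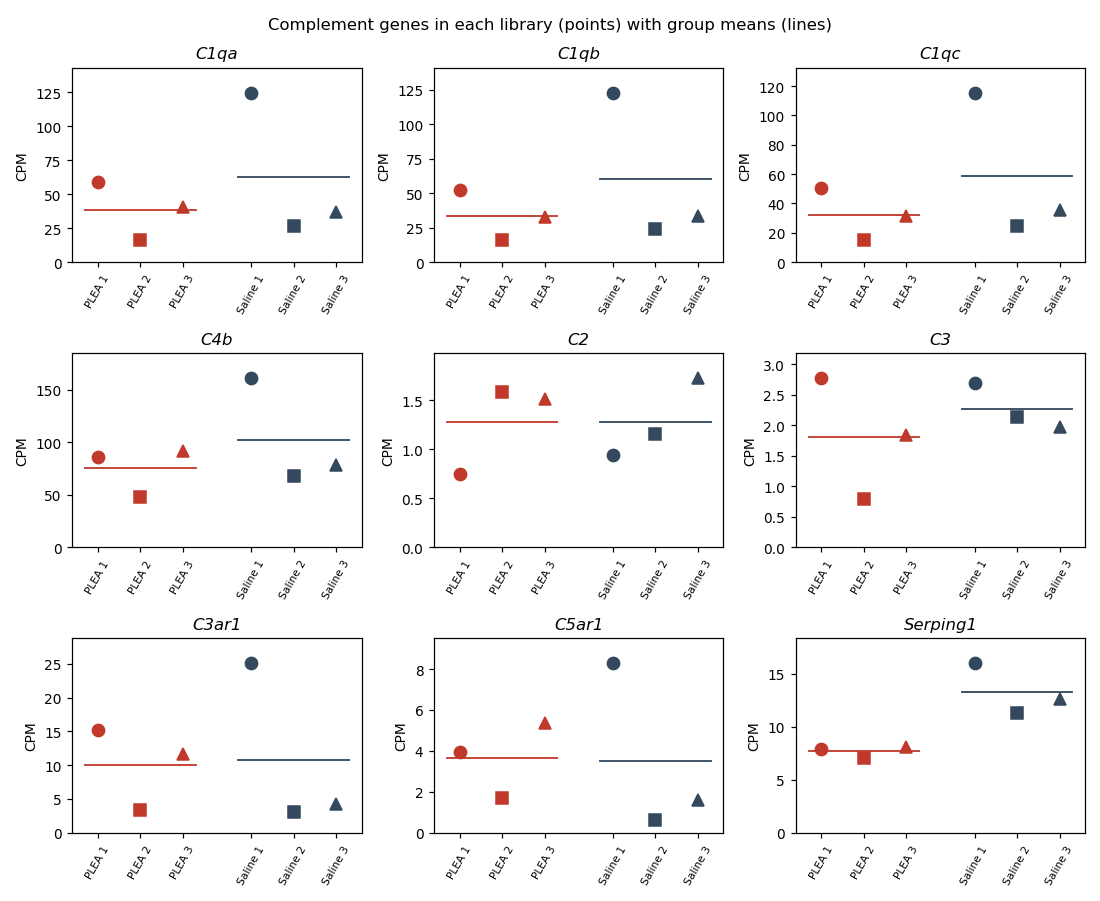
CPM of the 9 complement genes in each library (y axis, from 0, a scale per gene), with PLEA libraries in red on the left, saline libraries in dark blue on the right, symbols for the replicate number and lines for group means. Serping1 is the gene without overlap between groups, and saline replicate 1 is highest for the C1q chains, C4b, both receptors and Serping1.

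Per kilobase of the deposited gene length, the C1q chains and C4b were the most abundant of the 9. C1qa averaged 37.0 ± 20.3 CPM per kilobase with PLEA and 60.03 ± 51.8 with saline (SD, n = 3 each). C1qb averaged 31.0 ± 16.5 with PLEA and 55.3 ± 50.1 with saline, and C1qc 16.7 ± 9.17 with PLEA and 30.3 ± 25.6 with saline. C4b averaged 13.2 ± 4.16 CPM per kilobase with PLEA and 17.98 ± 8.96 with saline. Below these came Serping1, at 3.296 ± 0.243 with PLEA and 5.71 ± 1.04 with saline, and C3ar1, at 2.33 ± 1.42 with PLEA and 2.50 ± 2.88 with saline. C5ar1 averaged 1.43 ± 0.719 with PLEA and 1.36 ± 1.62 with saline. C3, at 0.351 ± 0.193 with PLEA and 0.441 ± 0.0742 with saline, and C2, at 0.331 ± 0.119 with PLEA and 0.329 ± 0.105 with saline, were the lowest. Among neighbours in this order, C1qa and C1qb, C1qb and C1qc, C1qc and C4b, and C3ar1 and C5ar1 differed by less than the larger SD of the pair in both groups. Serping1 and C3ar1, and C3 and C2, did so with PLEA but not with saline, C5ar1 and C3 with saline but not with PLEA, and C4b and Serping1 in neither. These SDs are taken between libraries, while 2 genes can also be compared within a library. Within each of the 6 libraries C1qa was above C1qb, C1qb above C1qc, C4b above Serping1 and C3ar1 above C5ar1. The remaining neighbouring pairs took either order.

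The C1q chains assemble into the recognition molecule of the classical pathway, and their transcripts moved as a unit. C1qa, the A chain, was at 58.5, 16.4 and 40.4 CPM in PLEA replicates 1 to 3 and at 124, 26.3 and 36.7 CPM in saline replicates 1 to 3. The groups overlapped, with PLEA replicates 1 and 3 above saline replicates 2 and 3. C1qb, the B chain, was at 52.1, 16.2 and 33.0 CPM with PLEA and at 123, 23.8 and 33.9 CPM with saline. C1qc, the C chain, was at 50.3, 14.9 and 31.5 CPM with PLEA and at 115, 24.5 and 35.9 CPM with saline. In all 3 genes saline replicate 1 was the highest library, PLEA replicate 1 the next and PLEA replicate 2 the lowest, a span of 7.57-fold for C1qa, 7.58-fold for C1qb and 7.74-fold for C1qc.

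Log2 fold changes of PLEA over saline were -0.70 for C1qa (SE 0.61, edgeR adjusted p = 0.860), -0.83 for C1qb (SE 0.62, adjusted p = 0.848) and -0.86 for C1qc (SE 0.60, adjusted p = 0.842). Without saline replicate 1 they turned to 0.30, 0.24 and 0.11, and without PLEA replicate 2 they were -0.33, -0.50 and -0.52. Without PLEA replicate 1 they were -1.16, -1.32 and -1.36. The sign of the C1q difference thus held in 5 of the 6 leave-one-out fits.

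The balance between the chains varied far less than their level. After centring each gene on its own mean log2 CPM, profiles of the chains differed by a root mean square of 0.0719 to 0.105 over the 6 libraries, while their distance to C4b was 0.419 to 0.440. Per length, the log2 ratio of C1qa to C1qc was 1.13 ± 0.111 with PLEA and 0.97 ± 0.0432 with saline (SD, n = 3 each), with PLEA at 1.11, 1.03 and 1.25 and saline at 1.001, 0.998 and 0.92. The groups did not overlap, but the exact two-sided permutation p of 0.1 is the smallest that 3 against 3 libraries allow, and adjusted over the 3 chain ratios it was 0.3. The ratio of C1qa to C1qb was 0.23 ± 0.137 with PLEA and 0.16 ± 0.0663 with saline (exact permutation p = 0.4), and that of C1qb to C1qc 0.91 ± 0.0367 with PLEA and 0.82 ± 0.0907 with saline (exact permutation p = 0.3). The absolute ratios depend on the deposited gene lengths, which count 1040, 1088 and 1931 bases for C1qa, C1qb and C1qc.

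The C1q level followed other microglial transcripts from library to library. Markers of microglia (9 genes) summed to 413, 142 and 263 CPM in PLEA replicates 1 to 3 and to 794, 271 and 346 CPM in saline replicates 1 to 3, so saline replicate 1 was highest and PLEA replicate 2 lowest here too. Of the 9 markers, 9 had negative log2 fold changes (median -0.77) and 0 passed over all genes. The values ranged from -1.56 to -0.54. In edgeR 2 of the 9 were lower at an unadjusted p under 0.05, P2ry12 (-1.56) and Siglech (-1.38). Cx3cr1, Csf1r and Aif1 were at -0.63, -0.66 and -0.97. The C1q mean minus the marker mean, in log2 CPM, was 0.90, 0.73 and 1.005 with PLEA and 1.0001, 0.32 and 0.43 with saline. Groups overlapped through saline replicate 1, and the difference of 0.29 had an exact two-sided permutation p of 0.3. Without saline replicate 1 it was 0.50. Against Cx3cr1, Csf1r and Aif1 alone it was 0.038 (exact permutation p = 0.9). By the same centred profiles, the nearest to the C1q mean among 10614 other genes included Tyrobp, an adaptor of myeloid receptors, Cd53, a leukocyte tetraspanin, Cx3cr1, the fractalkine receptor, and Itgb2, the beta chain of complement receptor 3. Their root mean square differences over the 6 libraries were 0.141, 0.142, 0.144 and 0.154, in the same order. The part of microglial content in the C1q difference was not tested beyond these values.

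**Figure D2:**
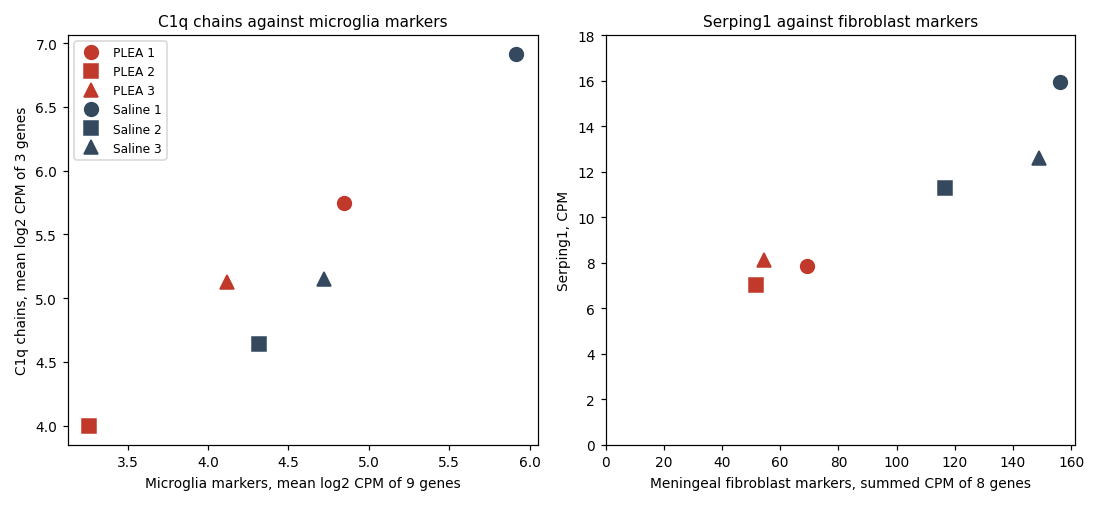
On the left, mean log2 CPM of the C1q chains (y axis) against that of 9 microglia markers (x axis), and on the right, CPM of Serping1 (y axis) against the summed CPM of 8 meningeal fibroblast markers (x axis), with a point per library, PLEA in red and saline in dark blue. C1q runs from PLEA replicate 2 to saline replicate 1 with the groups mixed, while Serping1 and the fibroblast markers separate the groups, at 51.6 to 69.1 CPM of markers with PLEA and 116 to 156 CPM with saline.

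C4b, the mouse C4 gene that supplies the classical pathway, had counts of 1492, 848 and 1635 with PLEA and 2745, 1179 and 1267 with saline. In CPM it was at 86.2, 48.1 and 91.4 with PLEA and at 161, 68.1 and 78.0 with saline, and the groups overlapped. Its log2 fold change was -0.44 (SE 0.35, edgeR adjusted p = 0.854), which turned to 0.05 without saline replicate 1 and was -0.20 without PLEA replicate 2. Astrocyte markers (7 genes), of a cell type that makes C4b, summed to between 3321 and 4464 CPM with PLEA and between 4077 and 6931 CPM with saline, with the top in saline replicate 1. Oligodendrocytes make C4b too. Their markers (4 genes) summed to between 2004 and 2901 CPM with PLEA and between 2862 and 4427 CPM with saline. The top of these sums was in saline replicate 2, where C4b was above PLEA replicate 2 alone. Nearest to C4b over the 6 libraries were Tcirg1, a subunit of the vacuolar proton pump, Lair1, an inhibitory collagen receptor of leukocytes, and Rhoc, a small GTPase, at root mean square differences of 0.0417, 0.0848 and 0.106. The paralog C4a matches the C4b transcript at 95.965% over 5378 bases, so reads can be split between them. C4a had 51, 58 and 75 counts with PLEA and 47, 38 and 56 with saline. Its log2 fold change was 0.31 (SE 0.28, edgeR adjusted p = 0.866).

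C2 and C3 were near the lower limit of these libraries. C2, the serine protease that pairs with C4 in the C3-cutting enzyme, had 13, 28 and 27 counts with PLEA and 16, 20 and 28 with saline, or 1.28 ± 0.462 CPM with PLEA and 1.27 ± 0.405 CPM with saline (SD, n = 3 each). Its log2 fold change was 0.01 (SE 0.42, edgeR adjusted p = 0.998), and it took either sign when libraries were left out, from -0.17 without PLEA replicate 2 to 0.28 without saline replicate 3, and -0.15 without saline replicate 1. Its span overlaps the read-through gene Gm20547, which matches 1051 bases of the C2 transcript exactly and was listed at 0 in every library, and the opposite-strand gene Zbtb12 over 17385 bases. Reads shared with either gene cannot be told apart without the counting rules. PLEA replicate 1 and saline replicate 1, the highest libraries for the C1q chains, were the lowest for C2.

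C3, the central component on which all activation routes meet, had 48, 14 and 33 counts with PLEA and 46, 37 and 32 with saline. In CPM these were 2.77, 0.793 and 1.84 with PLEA and 2.70, 2.14 and 1.97 with saline, with PLEA replicate 1 highest and PLEA replicate 2 lowest. The log2 fold change was -0.33 (SE 0.44, edgeR adjusted p = 0.906), and it turned to 0.02 without PLEA replicate 2 and was -0.79 without PLEA replicate 1 and -0.18 without saline replicate 1. The nearest profiles were those of Pamr1, Tst and Mrps6, at 0.125, 0.158 and 0.169.

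The anaphylatoxin receptors had the widest spread between libraries. C3ar1, the receptor of C3a, was at 15.1, 3.29 and 11.7 CPM with PLEA and at 25.1, 3.01 and 4.25 CPM with saline, an 8.33-fold span. C5ar1, the C5a receptor that draws in myeloid cells, was at 3.93, 1.70 and 5.37 CPM with PLEA and at 8.27, 0.636 and 1.6003 CPM with saline, a 13.01-fold span. In both genes saline replicate 1 was the highest and saline replicate 2 the lowest library. The log2 fold changes were -0.10 for C3ar1 (SE 0.80, edgeR adjusted p = 0.989) and 0.06 for C5ar1 (SE 0.81, adjusted p = 0.995). The C5ar1 value was 0.68 with limma voom (adjusted p = 0.904) and 0.56 with a replicate block in edgeR (adjusted p = 0.855), and that of C3ar1 was 0.28 and 0.25.

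Without saline replicate 1 the receptors' log2 fold changes were 1.48 for C3ar1 (SE 0.58, unadjusted p = 0.0333) and 1.72 for C5ar1 (SE 0.59, unadjusted p = 0.0190) in edgeR, with an adjusted p of 0.827 for both. Saline replicate 1 was the highest library for both genes, so leaving it out raises both values. In every other leave-one-out fit the unadjusted edgeR p was at least 0.473 for C3ar1 and 0.527 for C5ar1. Without saline replicate 2 the log2 fold changes were -0.56 for C3ar1 and -0.44 for C5ar1, and without PLEA replicate 2 they were 0.32 and 0.41. C5ar1 also turned to -0.30 without saline replicate 3, to -0.31 without PLEA replicate 3 and to -0.01 without PLEA replicate 1. Relative to the microglial marker mean, a description chosen after its values were seen, C3ar1 was at -0.92, -1.50 and -0.56 in log2 units with PLEA and at -1.26, -2.68 and -2.59 with saline. C5ar1 was at -2.83, -2.40 and -1.66 with PLEA and at -2.85, -4.73 and -3.94 with saline. By this measure the PLEA libraries were above saline replicates 2 and 3 for both receptors, and saline replicate 1 lay within the PLEA range for C3ar1 and just below it for C5ar1. The group means of this measure differed by 1.19 for C3ar1 and by 1.54 for C5ar1. The marker mean itself was at 4.85, 3.26 and 4.12 log2 CPM with PLEA and at 5.92, 4.32 and 4.72 with saline. A lower marker mean raises every value on this scale. An upward shift was not particular to the receptors, but it was smaller in C4b, Serping1 and the C1q mean. Other myeloid genes were not set on this scale, so whether the larger shift was particular to the receptors was not tested. C4b averaged 2.10 ± 0.450 with PLEA and 1.59 ± 0.180 with saline (SD, n = 3 each), a difference of 0.52, Serping1 averaged -1.12 ± 0.714 with PLEA and -1.26 ± 0.579 with saline, a difference of 0.14, and the C1q mean differed by 0.29.

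Other myeloid cells bear these receptors as well. Monocyte and macrophage markers (8 genes) summed to 76.3, 18.5 and 38.2 CPM with PLEA and to 168, 22.9 and 35.6 CPM with saline. Of these, Ccr2, the receptor of inflammatory monocytes, had 7, 3 and 3 counts with PLEA and 106, 8 and 15 with saline. It stayed under the filter and was not tested. The 5 tested genes of the list had negative log2 fold changes, but 0 of the 5 were lower without overlap. Cd68, for one, had 619, 223 and 389 counts with PLEA and 1158, 191 and 248 with saline. In CPM its PLEA replicates 1 and 3 lay above saline replicates 2 and 3. Neutrophil markers (7 genes) summed to between 4.14 and 9.48 CPM with PLEA and between 9.48 and 23.8 CPM with saline. Csf3r alone was at 8.15, 2.95 and 5.76 CPM with PLEA and at 22.3, 6.76 and 7.69 CPM with saline. The top of the sum, in saline replicate 1, thus rested on Csf3r. S100a9 had 2, 0 and 1 counts with PLEA and 5, 3 and 81 with saline. Whether these sums reflect infiltrating cells or microglia was not tested, nor was the part of such cells in the receptor values.

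Serping1 separated the groups. It encodes the C1 inhibitor, a protease inhibitor that inactivates the C1 proteases and also kallikrein, and it was at 7.86, 7.03 and 8.11 CPM with PLEA and at 16.0, 11.3 and 12.6 CPM with saline. The lowest saline library lay above the highest PLEA library. Means were 7.66 ± 0.566 CPM with PLEA and 13.3 ± 2.41 CPM with saline (SD, n = 3 each). The log2 fold change was -0.79 (SE 0.19, unadjusted p = 0.00295 in edgeR). It did not pass over all genes, with an edgeR adjusted p of 0.818 and a DESeq2 adjusted p of 0.128. Leaving out each library gave log2 fold changes from -0.90 to -0.63, with -0.63 without saline replicate 1, and adjusted p-values no lower than 0.499.

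Several marker lists were lower with PLEA too. The sums of the meningeal fibroblast, interferon-response and mural lists did not overlap, while those of the endothelial, border macrophage and astrocyte lists did. The neutrophil sums nearly met, at 9.477 CPM in PLEA replicate 1 and 9.4795 CPM in saline replicate 2. Of all tested genes 5.54% were lower without overlap. Negative values were not particular to these lists. They were found in 9 of 9 microglia, 5 of 5 tested monocyte and macrophage and 4 of 4 oligodendrocyte genes. Neuron genes had 3 negative and 2 positive values, and 5 of 5 striatum genes were positive. Meningeal fibroblast markers summed to 69.1, 51.6 and 54.5 CPM with PLEA and to 156, 116 and 149 CPM with saline, and 7 of the 8 genes had PLEA below saline in every library. Dcn, a matrix proteoglycan, was at 8.78, 9.63 and 7.43 CPM with PLEA and at 34.6, 20.6 and 16.7 CPM with saline. Interferon-response markers (7 genes) summed to between 18.4 and 28.7 CPM with PLEA and between 30.5 and 60.1 CPM with saline, without overlap for 4 of the 7. Endothelial markers (6 genes) summed to between 184 and 245 CPM with PLEA and between 223 and 344 CPM with saline, with 3 of 6 without overlap. Mural markers (6 genes) summed to between 160.2 and 196 CPM with PLEA and between 199 and 318 CPM with saline, so the sums did not overlap, and 1 of the 5 tested genes was without overlap. The mural gene under the filter, Tagln, went the other way, with 9, 9 and 8 counts with PLEA and 5, 2 and 3 with saline. Border macrophage markers summed to between 14.7 and 20.9 CPM with PLEA and between 18.6 and 42.2 CPM with saline, with 6 of 6 genes negative and 2 without overlap. Astrocyte markers, with the sums given above, were negative in 7 of 7 genes and without overlap in 2. No gene of these lists passed the edgeR test over all genes, and their part in the Serping1 difference was not tested. Nearest to Serping1 over the 6 libraries were Phldb2, Lgals3bp and Pkib, at root mean square differences of 0.111, 0.126 and 0.132.

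The inhibitor was also set against its target. The log2 CPM of Serping1 minus the C1q mean was -2.75, -1.16 and -2.08 with PLEA and -2.91, -1.13 and -1.48 with saline. The groups overlapped, with a difference of -0.16 and an exact two-sided permutation p of 0.9. This difference was -0.69 without saline replicate 1, and it turned to 0.20 without saline replicate 2 and to 0.22 without PLEA replicate 1.

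**Figure D3:**
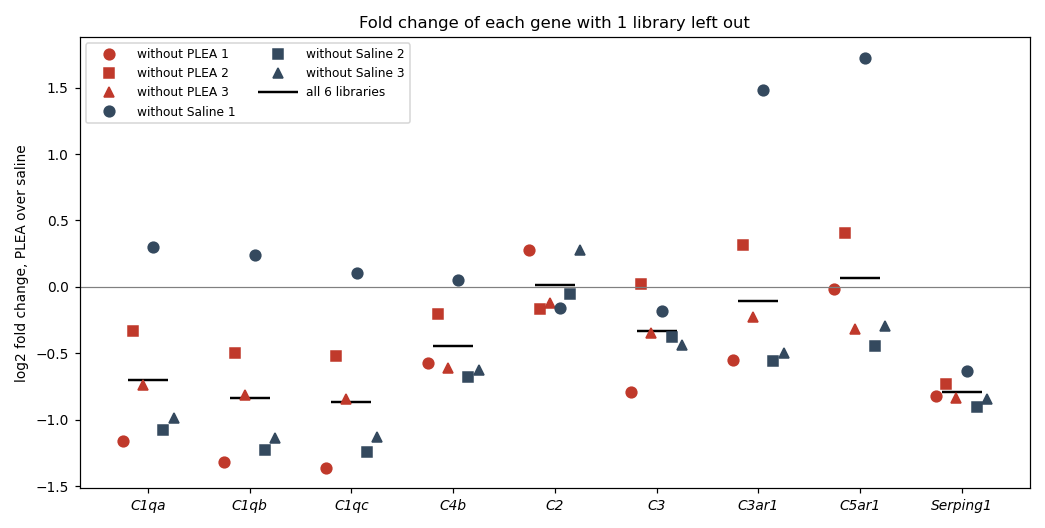
Log2 fold change of PLEA over saline (y axis) for each of the 9 genes with 1 library left out at a time (symbols, red where a PLEA library was left out and dark blue where a saline library was) and with all 6 libraries (black lines). Serping1 stays between -0.90 and -0.63, while the C1q chains, C4b, C2 and C3ar1 change sign without saline replicate 1.

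The rest of the pathway was read from a list of 54 further complement genes ordered by role, of which 33 passed the filter. Of these, 0 were higher and 0 lower at an edgeR adjusted p under 0.05, by DESeq2 and limma voom too, and at an unadjusted p under 0.05 there were 0 higher and 2 lower (Colec12 and Vtn). The list's median log2 fold change was -0.02, with 19 negative and 14 positive values. Groups did not overlap for 1 gene lower (Colec12) and 1 higher (C8g), where 5.54% and 5.16% of tested genes did so. Of the 21 genes under the filter, 5 had 0 counts in every library: Cfd, Mbl1, C9, Cd55b and Crp. A count of 0 in a library of this size does not show that a gene is absent.

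Among the C1 proteases, C1ra and C1s1 passed the filter, with log2 fold changes of -0.20 (SE 0.32) and 0.05 (SE 0.35). C1ra encodes the protease that activates C1s and was at 1.62, 2.27 and 2.63 CPM with PLEA and at 3.05, 1.97 and 2.46 CPM with saline, so its groups overlapped. C1s1 ranged from -0.27 without PLEA replicate 3 to 0.20 without PLEA replicate 1. Cfp, which encodes properdin, the stabiliser of the alternative pathway enzyme, was at 8.03, 8.33 and 12.0 CPM with PLEA and at 10.4, 8.84 and 9.11 CPM with saline, a log2 fold change of -0.0034 (SE 0.21). Cfb, the protease of that pathway, stayed under the filter with 4, 6 and 7 counts with PLEA and 3, 3 and 1 with saline. C1s2, among the C1 proteases, stayed under it too and went the other way, with 3, 1 and 2 counts with PLEA and 5, 8 and 5 with saline. Neither gene was tested.

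In the lectin pathway 5 of 9 genes were tested. Colec12, a scavenger receptor with a collectin domain, was at 13.6, 8.84 and 12.4 CPM with PLEA and at 19.2, 17.4 and 21.7 CPM with saline, without overlap. Its log2 fold change was -0.74 (SE 0.19, edgeR adjusted p = 0.818), and it lay between -0.88 and -0.58 with 1 library left out. Masp1, a protease of the pathway, was at -0.33 (SE 0.19), and its span overlaps the opposite-strand gene Rtp4 over 525 bases. The pattern recognition genes Mbl1 and Mbl2 had at most 2 counts in any library.

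The terminal components, which build the membrane pore, were scarce. C7 and C8g passed the filter, and the other 5, among them the C5 gene Hc, had at most 17 counts in any library. C8g, the gamma chain of C8, was at 2.66, 4.36 and 4.02 CPM with PLEA and at 2.64, 2.49 and 2.15 CPM with saline, and PLEA replicate 1 lay just above the highest saline library. Its log2 fold change was 0.60 (SE 0.28, edgeR adjusted p = 0.818). Its span overlaps Fbxw5, which lies on the opposite strand and had 1044 to 1511 counts, over 970 bases, so reads of Fbxw5 among its counts cannot be told apart without strand. C7 was at 0.14 (SE 0.57) and turned to -0.32 without saline replicate 2.

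Soluble regulators had negative values in 3 of 3 tested genes. Vtn, which encodes vitronectin, an inhibitor of the terminal pore, was at 49.4, 32.5 and 39.4 CPM with PLEA and at 55.4, 47.9 and 54.4 CPM with saline. PLEA replicate 1 lay above saline replicate 2, and the log2 fold change was -0.38 (SE 0.16, edgeR adjusted p = 0.818). It was -0.24 without PLEA replicate 2.

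Membrane regulators, which shield host cells, gave values near 0. Of 10 tested genes 5 were negative and 5 positive, with a median log2 fold change of 0.01 and a range from -0.13 to 0.51. Cd59b, which blocks the pore, was at 0.51 (SE 0.51), or 0.12 without saline replicate 3. Cd46, a cofactor for C3b cleavage, was at -0.13 (SE 0.15), and its span overlaps the opposite-strand gene A330023F24Rik, which had 675 to 1712 counts.

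Of the other receptors, 6 of 6 tested genes were negative, with a median log2 fold change of -0.47. They include C5ar2, which also binds C5a and was at -0.23 (SE 0.49), turning to 0.20 without saline replicate 1. Itgam, the alpha chain of complement receptor 3, was at 13.003, 2.27 and 5.65 CPM with PLEA and at 35.2, 8.73 and 8.31 CPM with saline, with PLEA replicate 1 above 2 saline libraries. Its log2 fold change was -1.32 (SE 0.71, edgeR adjusted p = 0.818), and this was -0.28 without saline replicate 1 and -2.16 without PLEA replicate 1. Cd93, a receptor named for C1q binding and found on endothelium and myeloid cells, was at 10.2, 9.69 and 12.9 CPM with PLEA and at 31.9, 10.3 and 11.02 CPM with saline. Its value of -0.70 (SE 0.42) turned to 0.04 without saline replicate 1. Itgb2, the partner chain of Itgam, was at -0.73 (SE 0.55) and turned to 0.18 without saline replicate 1.

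Pentraxins bind C1q and were positive in 3 of 3 tested genes. Ptx3, the long pentraxin of inflammation, had 14, 1 and 90 counts with PLEA and 14, 17 and 4 with saline, so its log2 fold change of 1.51 (SE 1.10, edgeR adjusted p = 0.845) rested on PLEA replicate 3 and turned to -0.66 without it. Nptx2, a neuronal pentraxin of synapses, was at 58.4, 17.7 and 28.6 CPM with PLEA and at 22.8, 26.3 and 31.3 CPM with saline. Its value of 0.38 (SE 0.38) turned to -0.22 without PLEA replicate 1.

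**Figure D4:**
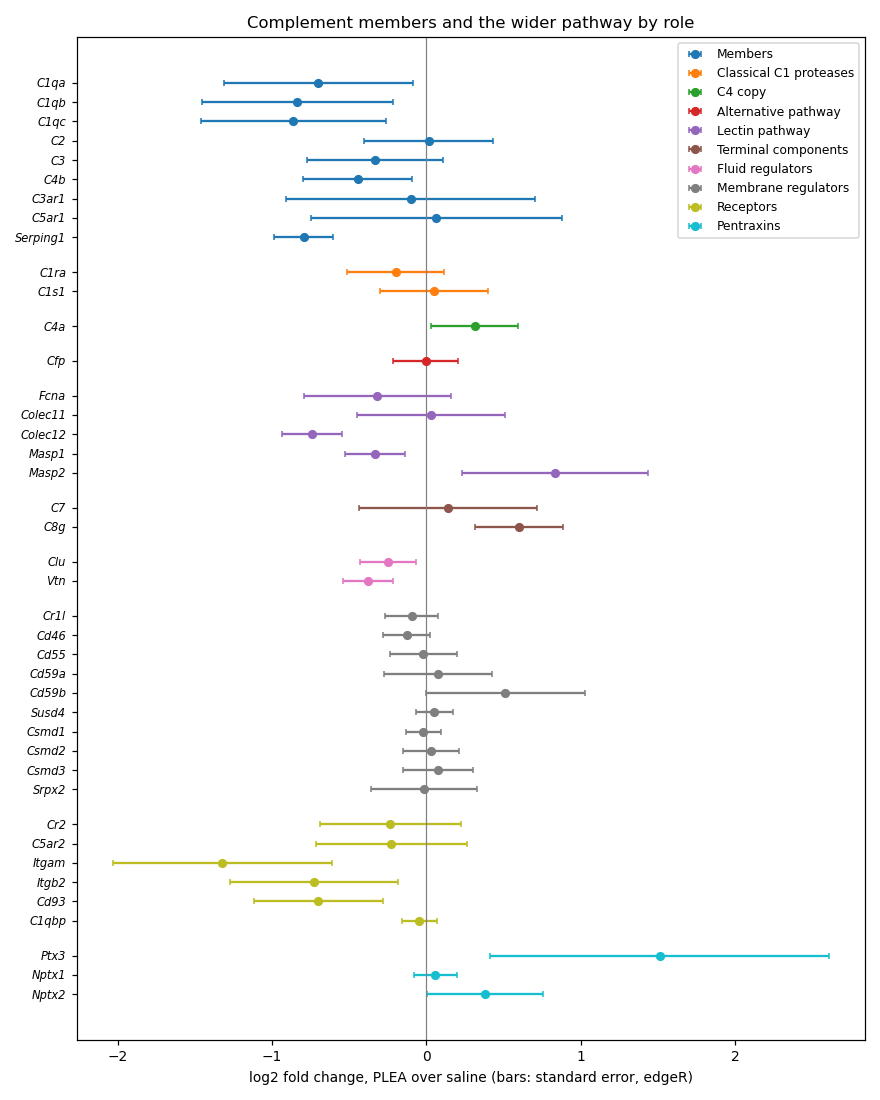
Log2 fold change of PLEA over saline (x axis, bars for the edgeR standard error) for the 9 complement genes, drawn first, and 32 of the 33 tested genes of the wider list, coloured by role. Serping1 and Colec12 have narrow bars to the left of 0, the soluble regulators and receptors lie left of 0, the membrane regulators lie around 0 between -0.13 and 0.51, and no gene passed at an adjusted p under 0.05.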

How the data were processed

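RNA from mouse brain (1.3 µg per library, a SMARTer mRNA kit) was sequenced, per the labels' protocols. The authors deposited raw whole-number read counts per gene for 6 libraries, with gene lengths in bases (another column of the same table) and no normalization, per the file headers. No aligner, counter or strand setting is given in the sources used here. Builds GRCm38 and mm10 appear in the submitters' processing notes, but 0 of the 9 members have the start and end of GENCODE M21, an annotation of GRCm38, so no deposited coordinates are printed, and promoter windows carry their own build. Libraries were grouped by title (3 PLEA, 3 saline). The label "batch" reads Day 3 for every library and separates none.

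The main test, in R 4.3.3, was edgeR 4.0.16 with its filterByExpr filter, TMM factors, treatment alone in the model and the quasi-likelihood test, adjusted by Benjamini-Hochberg over 17584 genes at a threshold of 0.05. An SE is the size of a log2 fold change over the root of its F statistic. Log2 CPM used a prior count of 2. Ratios within libraries were tested by exact permutation over libraries. Closest profiles were sought among genes averaging 3 or more in log2 CPM, predicted genes left out. Near copies were sought with BLASTN 2.17.0 among GENCODE M21 transcripts (identity of at least 90%, at least 100 bases). Genes of the wider list named with values are the 2 of each role with the smallest p, plus C4a and, outside this rule, C5ar2. Cfb, C1s2, Hc, Mbl1, Mbl2, Itgb2 and the genes at 0 in every library were named after their values were seen. So were the single markers Dcn, Ccr2, Cd68, Csf3r, Siglech, S100a9, Tagln, Ttr and Alb. Alternatives were DESeq2 1.42.0, limma 3.58.1 voom, RLE and upper-quartile factors, other filters, a replicate block and leaving out each library. Values of 2 genes that the naming rule picks are not reported here. A planned comparison of protein sequences was not run. The fit was tested on simulated data. Members and lists were chosen with earlier results of these data known.

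The lowest chi-square per degree of freedom between 2 libraries was 13.1, so no library was a repeat of another within sampling noise.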

Additional observations from a re-analysis of the deposited data

How the results depend on the processing

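No complement gene was called, higher or lower, in any alternative run, and none of the wider list either. Genes called over the whole table, 0 higher and 0 lower in the main test, became 3 higher and 36 lower in DESeq2, and 7 higher and 31 lower in edgeR when unfiltered. The cause was not tested. With 1 library left out, from 0 to 0 were higher and from 0 to 1 lower, the 1 without saline replicate 1. The median log2 fold change of the 9 genes ranged from -0.49 to -0.44 with other tools, factors and filters and from -0.79 to 0.11 with 1 library left out. Leave-one-out ranges of log2 fold changes were -1.16 to 0.30 for C1qa, -1.32 to 0.24 for C1qb, -1.36 to 0.11 for C1qc, -0.17 to 0.28 for C2, -0.79 to 0.024 for C3, -0.68 to 0.052 for C4b, -0.56 to 1.48 for C3ar1, -0.44 to 1.72 for C5ar1 and -0.90 to -0.63 for Serping1. For Serping1 relative to C1q the range was -0.69 to 0.22, for C1q relative to microglial markers 0.16 to 0.50. With limma voom C2 turned to -0.0094 and C3ar1 to 0.28, C5ar1 moved to 0.68, and without a filter C2 turned to -0.0018. C2 and C3 had 13 to 48 counts per library, and the share of counting error in their spread was not tested.

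Same-numbered libraries of the groups had correlations of their deviations, across genes, of 0.37, 0.17 and -0.018. The 0.37 of replicates 1 was the highest of all pairs, but not every library was closest to its own number. The labels state no pairing, and with 3 libraries in each group this check cannot decide whether the numbers pair the samples. With a replicate block 0 genes were called in either direction, the median of the 9 genes was -0.44, C2 turned to -0.0049 and C3ar1 to 0.25, C5ar1 moved to 0.56, and Serping1 was at -0.78 (edgeR adjusted p = 0.395).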

Other observations

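Ttr, which marks choroid plexus in brain and is also a liver gene, had 3, 98 and 5020 counts with PLEA and 1, 27 and 8 with saline. PLEA replicate 3, where it was highest, was the highest library for 0 of the 9 complement genes. The neutrophil gene S100a9, at 81 counts in saline replicate 3, had at most 5 counts in the other 5 libraries, and saline replicate 3 was the highest library for C2 alone.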
